A study of Mus musculus with 11 samples.

Results

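The comparison described here sets 1 array of wild-type (WT) mouse heart cells labelled atrium against 2 WT arrays labelled ventricle and aorta, 3 of the 11 arrays of the study. A gene was counted where the atrium array lay at least 2 log2 units, which is 4-fold, above or below both of the other arrays. Of 15710 genes with signal above background on a WT array, out of 27567 genes on the array design, 132 were higher in WT atrium (0.84%) and 265 were lower (1.69%). With 1 array against 2, an exact permutation test cannot go below p = 0.333, so no test was made and every value below is a description of these 3 arrays.

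The study measured RNA from cardiac progenitor cells, which its design text calls mesoangioblasts. Cells came from atrium, ventricle or aorta of WT animals or of animals lacking beta-sarcoglycan (null, written KO, 5 arrays), and C2C12, an established mouse myoblast line able to fuse into muscle fibres, was the control (3 arrays). The design text speaks of biological triplicates, but each WT region had 1 array. The labels give no strain, age, passage or treatment, and they do not say whether the 3 WT cultures came from 1 mouse or several. No WT group carries the deletion, per the labels, and Sgcb, the beta-sarcoglycan gene, was read at 2.07 in atrium, 2.20 in ventricle and 1.82 in aorta. Values are log2 of the background-subtracted signal over the 75th percentile of its array; a gene at 0 is thus fairly bright and a probe stops being measurable between -5.59 and -4.45 on the WT arrays. Repeated spots of a probe on 1 array had a standard deviation of 0.06 to 0.07, which covers spot noise only.

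Mesoangioblasts are progenitors that grow out from the walls of small vessels and can form several mesodermal tissues, among them smooth, skeletal and cardiac muscle. In the intact heart, atrial muscle is known for natriuretic peptide A, sarcolipin and the atrial myosin light chains, and ventricular muscle for its own light chains and Iroquois factors. The aorta is built of smooth muscle, endothelium and a fibroblast-rich outer coat. Cells cultured from such tissue can lose these marks, so the chamber genes are described below but cannot check the labels.

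The 3 WT arrays did not stand equally far apart. When ventricle was set against the other WT arrays by the same rule, 2 genes were higher (0.0127%) and 6 lower (0.0382%). For aorta, 7 genes were higher (0.0446%) and 0 lower (0%). Ventricle and aorta differed by 2 log2 units or more in 29 genes, against 561 genes between atrium and ventricle and 492 between atrium and aorta. The middle 50% of genes spanned 0.35 log2 units for ventricle minus aorta and 0.81 for atrium minus either one. WT atrium was therefore the array that stood apart, over a background in which the median gene differed by 0.04 and the middle 50% of genes lay between -0.33 and 0.37. Of all 15710 genes, 6601 lay above both other arrays in WT atrium and 6092 below both.

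Atrium lay at the first array position of the WT slide, and region and array position cannot be told apart. The KO atrium array lay at the same position of another slide, and there the rule found 5 genes higher (0.0343%) and 4 lower (0.0274%) among 14592 genes. C2C12 on the WT slide, set against C2C12 on the other slides, had 5 genes higher (0.0296%) and 39 lower (0.23%) among 16920 genes. The counts for WT atrium were thus larger than those of every other array examined in this way.

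**Figure D1:**
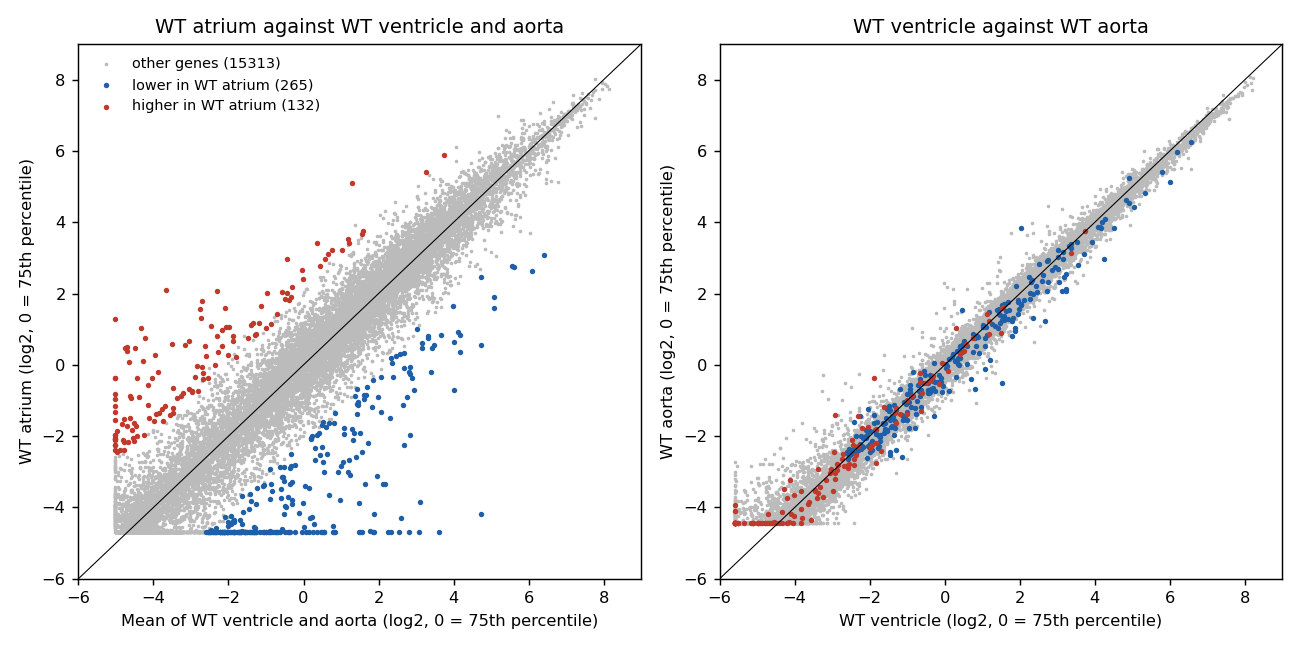
Left, WT atrium against the mean of WT ventricle and aorta, and right, WT ventricle against WT aorta, both in log2 units with 0 at the 75th percentile of the array; each point is 1 of 15710 genes and the line marks equality. The 132 genes higher (red) and 265 genes lower (blue) in WT atrium leave the line on the left and lie close to it on the right; points in straight rows are signals at the lowest measurable level of an array.

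Heart chamber genes did not mark the atrium array as atrial. Of 21 atrial and pacemaker genes, 12 were measured. By the rule 0 were higher in WT atrium and 1 was lower, against 0.84% and 1.69% of all genes. With 12 genes, 0 higher is near that share. Their median difference was 0.05 (-0.01 to 0.22 over the alternatives), with 5 above both other arrays and 5 below. Nppa, the atrial natriuretic peptide, was low and level at -3.20 in atrium, -3.14 in ventricle and -3.47 in aorta. Sln (sarcolipin), Tbx5, Kcnj3, Kcnj5, Kcna5 and Bmp10 were not above background on any WT array. Myl4, the atrial essential light chain, was -2.04 in atrium against -0.98 and -0.83.

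The atrial gene past the rule was Stard10, a lipid transfer protein, at -3.89 in atrium, 0.10 in ventricle and -0.74 in aorta, 8.89-fold lower than in aorta. The pacemaker factor Tbx3 was 2.56 in atrium against 1.37 and 1.57, and Tbx18, of the sinus node and epicardium, 0.28 against -0.97 and -1.07. Among 14 ventricular genes 7 were measured and 0 passed in either direction. Their median difference was 0.67 (0.51 to 0.84 over the alternatives), with 4 above both other arrays and 0 below. Ventricle was not the highest array there: Nppb was -1.23 in atrium against -2.26 in ventricle and -2.002 in aorta, and Myl2 was not above background on any WT array.

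**Figure D2:**
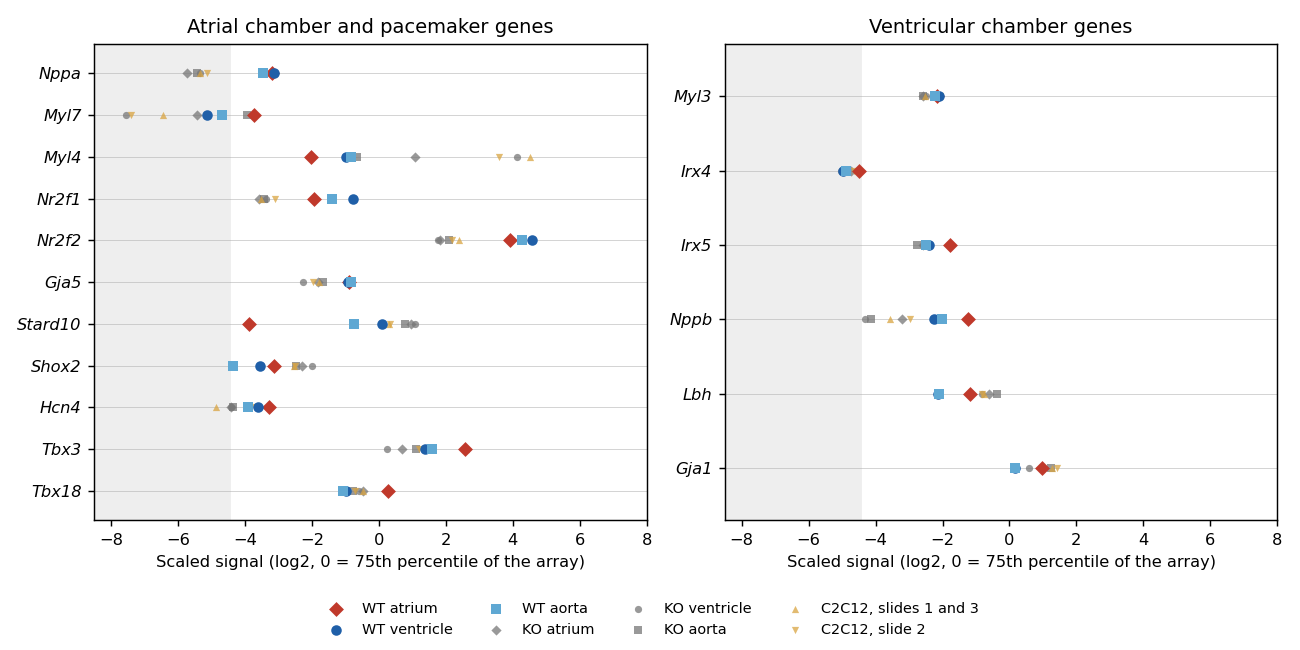
Scaled signal (log2, 0 = 75th percentile of the array) of the atrial and pacemaker genes (left) and ventricular genes (right) that were above background on the WT atrium array, in the 8 samples, 1 point per sample; grey shading marks levels below -4.45, where values have no order. WT atrium (red diamonds) shows no common shift of atrial genes, while Stard10 lies near background in it alone, at -3.89.

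Markers of other cell types were read in the same way. Of 21 endothelial markers 7 were measured, and the defining genes Pecam1, Cdh5, Kdr and Tek were not above background on any WT array. The 7 measured had a median difference of 0.20, with 3 above both arrays and 3 below, and the widest gaps in Flt1 (1.61) and Egfl7 (-1.10). Of 18 blood and macrophage markers on the array 9 were measured, with Ptprc and Adgre1 not above background. These 9 had a median difference of -0.16, with 3 above both arrays and 4 below. Their widest gaps were in Cd14 (-1.996) and Csf1r (-1.56). The summed signal of the measured markers, as a multiple of the 75th percentile, was 1.44 in atrium, 3.43 in ventricle and 2.47 in aorta for endothelium, and 1.92, 3.86 and 3.33 for blood. For pericyte and mesoangioblast markers the sums were 29.2, 34.3 and 29.5; 0 of 8 measured passed the rule, 4 lay below both arrays and 1 above, and the widest gap was that of Notch3, a receptor of mural cells (-1.52 against 1.12 and 0.25). Their share in the differences below was not tested.

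Single genes of smooth muscle and of the epicardial and mesothelial lining were less abundant in WT atrium. The smooth muscle sum was 43.5 in atrium against 184 in ventricle and 111 in aorta. Such sums add signals without log2, and Acta2 and Tagln made up most of this sum on each array. Of 15 measured smooth muscle genes 0 passed the rule, 8 lay below both arrays and 2 above, and the highest difference was 1.22. Their median difference was -0.44, and was -0.23 with ventricle left out and -0.66 with aorta left out. Acta2, smooth muscle actin, stood at 3.71 in atrium, 6.57 in ventricle and 5.50 in aorta. Tagln (transgelin), an actin-binding protein, was 3.77 against 5.998 and 5.55. In a bulk sample, fewer cells of a type and less RNA per cell cannot be told apart. Aorta, the smooth muscle vessel of the label, was below ventricle for both.

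Myl9, the regulatory light chain of smooth and non-muscle myosin, was the contractile gene past the rule, at 0.54 in atrium, 4.91 in ventricle and 4.53 in aorta, 15.8-fold lower than in aorta. The KO and C2C12 samples held it at 5.004 to 6.95, so atrium was the low sample of all 8. Of 8 measured epicardial and mesothelial markers, Msln and Bnc1 were lower. Msln (mesothelin) was 3.08 in atrium against 6.56 and 6.25, a difference of 8.95-fold. Bnc1 (basonuclin 1), a zinc finger factor of epithelia and mesothelium, was -0.91 against 2.12 and 1.83, and was at background in KO and C2C12. Wt1 was above background on 1 WT array, at -6.80, -4.74 and -4.76. Tbx18 and Aldh1a1 went the other way, with gaps of 1.25 and 1.23. Of the 8 genes 2 lay above both arrays and 3 below, and their median difference was 0.03.

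The 15 genes furthest above and the 15 furthest below were next described with their signals in all 8 samples. A fold is given against the nearer of the other arrays. Where that array was not above background the fold is a bound, computed against its lowest measurable signal, as for 38 of the 132 higher genes.

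Morc4, a member of the MORC family of chromatin ATPases, had the largest gap among the higher genes. It stood at 1.28 in atrium and was not above background in ventricle or aorta (-6.79 and -5.92), at least 52.9-fold higher in atrium. Its probe lies on chromosome X, bases 135168456 to 135168515 of mouse build mm8, and a second probe gave a gap of 3.65 and another one of 1.34. KO and C2C12 samples held Morc4 at -0.64 to -0.12, so ventricle and aorta were the samples without measurable signal.

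Eva1a, a membrane protein linked to autophagy, was 2.09 in atrium against -4.12 and -3.23, 40.0-fold higher than in aorta. Eid2, an inhibitor of differentiation that binds the p300 acetylase, was 1.03 against -4.21 and -5.14, 37.8-fold higher. The other samples placed these genes differently: Eid2 lay between -0.35 and 0.14 in KO and C2C12, near atrium, whereas Eva1a lay between -1.85 and -1.10, between the WT arrays. Tenm3, a teneurin adhesion receptor, was 0.38 in atrium against -4.98 and -5.84, and was higher still in KO and C2C12 at 2.58 to 2.98. Panx1, a membrane channel, was 1.78 against -2.96 and -2.46 and was 3.08 to 3.82 in KO and C2C12. The second probes of Tenm3 and Panx1 were not above background on any WT array.

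Igf2, the imprinted fetal growth factor, was 0.47 in atrium, -6.49 in ventricle and -3.94 in aorta, 21.2-fold higher than in aorta. A second Igf2 probe had a gap of 2.80. Its neighbour H19, an imprinted non-coding RNA, was -2.36 against -4.11 and -3.66, a gap of 1.30 on the same side. In KO and C2C12, Igf2 ranged from 0.01 to 5.04, which includes the level in WT atrium.

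Other genes were higher in WT atrium than in all of the other 7 samples. Cytl1, a secreted factor of cartilage, was 0.49 in atrium and -4.97 or lower elsewhere. Lce1m, of the late cornified envelope family, was 0.12 and at or below -4.16 elsewhere. Chrdl1, a secreted BMP antagonist, was 0.47 against -4.55 and -4.42, but its other 2 probes were not above background on any WT array. Fry, a microtubule-binding protein, was -0.38 and at background in the other 7 samples, with a second probe at a gap of 1.55 and 2 others not above background on any WT array.

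**Figure D3:**
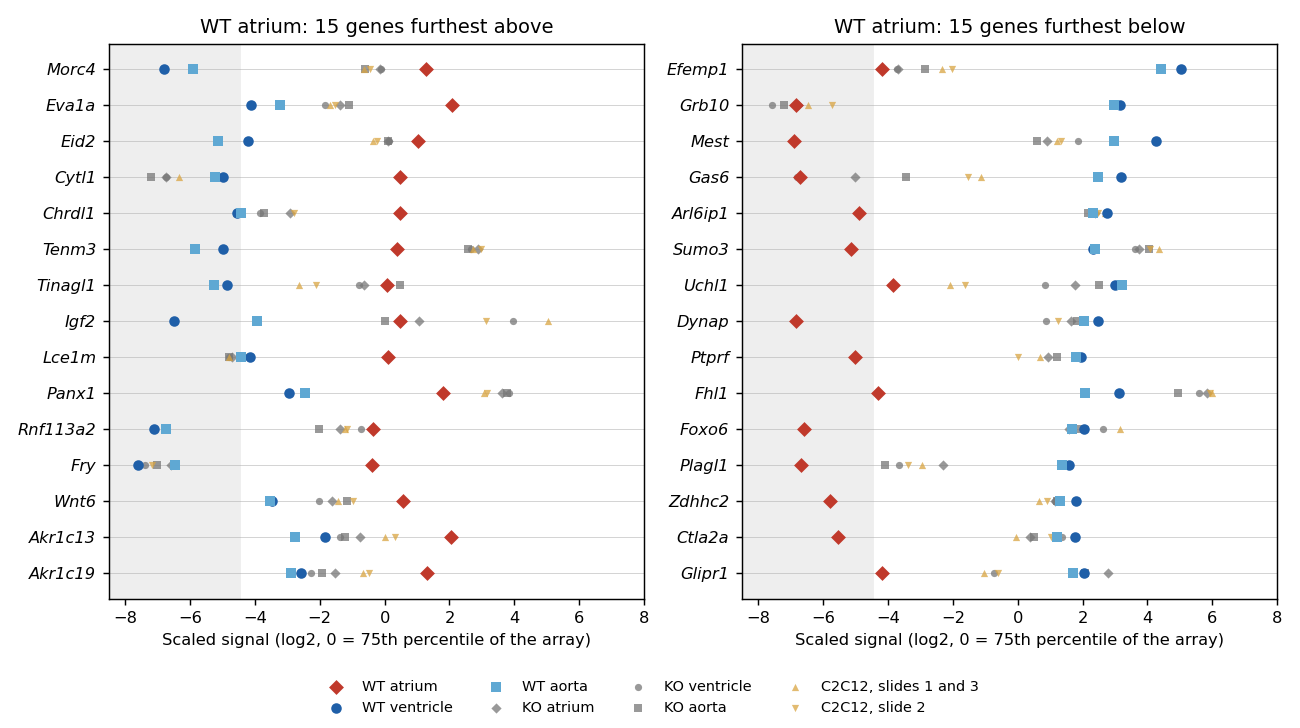
Scaled signal (log2, 0 = 75th percentile of the array) of the 15 genes furthest above (left) and furthest below (right) both other WT arrays in WT atrium, 1 point per sample; grey shading marks levels below -4.45, where values have no order. The KO and C2C12 samples lie with atrium for some genes (Eid2, Efemp1) and with ventricle and aorta for others (Cytl1, Arl6ip1).

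The lower genes had larger gaps than the higher ones, with a median of -2.86 over 265 genes against 2.46 over 132. Of the lower genes 28 had a gap of 5 or more, against 3 of the higher genes, and 116 of the 265 were not above background in atrium at all. The genes nearest the threshold were Ifih1 (2.002) inside and Thbs1 (1.998) outside on the higher side, and E2f6 (-2.009) inside and Cebpd (-1.9997) outside on the lower side.

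Efemp1 (fibulin 3), a matrix glycoprotein, had the largest gap of all. It stood at -4.19 in atrium, 5.05 in ventricle and 4.42 in aorta, 390-fold lower than in aorta. KO and C2C12 samples lay between -3.72 and -2.04, so ventricle and aorta were the samples with a high level. Grb10, an imprinted adaptor that dampens insulin and IGF receptor signalling, was not above background in atrium (-6.84) and was 3.16 and 2.98 in the others, at least 202-fold. It was at background in KO and C2C12 too, and its 2 other probes had gaps of -1.58 and -1.46.

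Mest, an imprinted gene expressed from the paternal copy, was not above background in atrium (-6.90) against 4.25 in ventricle and 2.96 in aorta, at least 199-fold. Plagl1, an imprinted zinc finger factor, was -6.69 against 1.58 and 1.36, at least 65.8-fold. KO and C2C12 held Mest at 0.61 to 1.87 and Plagl1 at -4.10 to -2.31. Gas6, the ligand of the TAM receptor kinases, was -6.71 against 3.18 and 2.47, at least 142-fold.

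For several genes WT atrium was the lone sample with little or no signal. Arl6ip1, which shapes the endoplasmic reticulum, was at background in atrium (-4.89) and between 2.16 and 2.75 in the other 7 samples. Sumo3, a ubiquitin-like modifier, was -5.12 in atrium and 2.31 to 4.36 elsewhere, and its second probe had a gap of -6.16. Zdhhc2, a palmitoyltransferase, was -5.79 against 0.64 to 1.81 elsewhere. Foxo6 was -6.58 against 1.57 to 3.16, and Fhl1, a LIM protein of muscle, -4.31 against 2.08 to 5.99. Ptprf, a receptor phosphatase, was -5.02 against 1.96 and 1.81 with a second probe at -5.69, but another probe was level at -0.86, -1.26 and -1.45.

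Uchl1, a ubiquitin hydrolase, was -3.83 in atrium against 3.01 and 3.22, 115-fold lower than in ventricle, with a second probe at a gap of -5.20. Ctla2a and Ctla2b, protease inhibitors encoded side by side, were both lower, and Ctla2a was -5.55 against 1.78 and 1.22. Dynap was -6.84 against 2.47 and 2.05, and Glipr1, a secreted-type CAP protein, was -4.17 against 2.04 and 1.71.

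Taking all the listed genes, the samples outside the rule divided them. Of 132 higher genes, all 5 KO and C2C12 samples lay on the ventricle and aorta side of the midpoint for 80 and on the atrium side for 24. Of 265 lower genes, they lay on the ventricle and aorta side for 120 and on the atrium side for 92. The genes were chosen for WT atrium lying away from both other WT arrays, and these counts have no share over all genes beside them. Few of these genes differed by region in KO. Of 103 higher genes above background in KO, KO atrium was 1 log2 unit or more above the other KO regions in 2. Of 222 lower genes it was below by as much in 7 and above in 2. These KO counts at 1 log2 unit also have no share over all genes beside them, so they cannot be read as a trait of these genes. None (0) reached 2 units in KO, where the rule found few genes among all 14592 (0.0343% higher and 0.0274% lower).

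Among listed genes that the tumour suppressor p53 switches on, 7 of the 20 measured were lower in WT atrium by the rule and 0 were higher. p53 is a transcription factor that is held low by Mdm2 and, once active, turns on genes for growth arrest, cell death and repair. Its targets share a site built of half-sites of 10 bases. The list held 22 targets. The 7 lower ones are 35% of those measured, against 1.69% of all genes, and 17 of 20 lay below both other arrays against 6092 of 15710 genes in all. The median difference was -1.27, against 0.04 for all genes, and stayed between -1.47 and -1.10 under the alternatives tried.

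RefSeq start regions of assembly GRCm38.p6 were searched for the p53 half-site consensus on both strands, in the 250 bases before each start. Of 17 measured targets with an entry, 10 held a half-site (58.8%), against 8.20% of all 27025 genes with an entry. The list was made of p53 targets, so this share does not bear on their level in WT atrium. The share was 60.0% for the lower targets, near that of all measured targets. It was 9.58% for all genes lower in WT atrium, 9.41% for the higher ones and 7.37% for measured genes. Of the lower targets with an entry, Cdkn1a, Ccng1 and Ddit4l held one, while Btg2 and Eda2r did not. These start regions are shown because their genes were lower together, with each half-site in capitals. The Cdkn1a region shown, chr17:29090729-29090978 on the plus strand, held 2 half-sites with no more than 13 bases between them, a full site that 0.067% of all genes had. A further Cdkn1a region, chr17:29093519-29093768, held 0. A gene was counted if any of its regions matched. The Ccng1 region was chr11:40755287-40755536 on the minus strand and the Ddit4l region chr3:137623422-137623671 on the plus strand. A match is a description of the letters, not of binding.
Cdkn1a: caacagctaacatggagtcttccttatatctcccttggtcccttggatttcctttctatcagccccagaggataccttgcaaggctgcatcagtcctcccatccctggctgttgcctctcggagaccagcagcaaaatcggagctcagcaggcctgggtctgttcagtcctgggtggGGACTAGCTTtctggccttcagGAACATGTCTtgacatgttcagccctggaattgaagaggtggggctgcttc
Ccng1: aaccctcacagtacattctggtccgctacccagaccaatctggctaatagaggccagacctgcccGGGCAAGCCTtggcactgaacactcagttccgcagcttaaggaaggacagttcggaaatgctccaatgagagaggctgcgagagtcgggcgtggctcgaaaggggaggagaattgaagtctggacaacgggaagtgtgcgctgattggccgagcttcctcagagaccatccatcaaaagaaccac
Ddit4l: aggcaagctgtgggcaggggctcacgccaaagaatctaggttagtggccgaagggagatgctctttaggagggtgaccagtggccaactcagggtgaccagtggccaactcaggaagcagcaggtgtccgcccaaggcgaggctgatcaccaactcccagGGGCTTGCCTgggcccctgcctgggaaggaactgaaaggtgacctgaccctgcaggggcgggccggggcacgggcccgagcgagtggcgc

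Cdkn1a encodes p21, the inhibitor of cyclin-dependent kinases through which p53 arrests growth. It stood at -0.21 in atrium, 3.37 in ventricle and 3.40 in aorta, 11.96-fold lower than in ventricle. Ccng1 (cyclin G1) was 0.92 against 4.20 and 4.01, 8.51-fold lower, with a second probe at a gap of -2.45. Ddit4l was not above background in atrium (-6.76) against -2.61 and -2.48, at least 4.20-fold, and its gap was -1.85 with arrays scaled to their medians. Ventricle and aorta differed by 0.19 or less in each of these genes.

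Trp53inp1, a stress protein that relays p53 activity, was -3.35 in atrium against 2.26 and 2.002, 40.7-fold lower, with a second probe at -3.73. Zmat3, an RNA-binding p53 target, was -0.21 against 2.73 and 2.92, 7.67-fold lower, with a second probe not above background on any WT array. Eda2r, a receptor of the TNF family, was not above background in atrium (-6.64) against -0.92 and -0.56, at least 13.5-fold lower. Other Eda2r probes had gaps of -2.99 and 0.00. Btg2, an antiproliferative gene, was -2.67 against 0.41 and 0.20, 7.35-fold lower, and its other probes had gaps of -1.21 and -1.53.

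Further targets differed by less. Mdm2, the ligase that degrades p53 and is itself a target, was 0.47 against 2.18 and 2.56. The death receptor Fas was -0.91 against 0.83 and 0.86, and the stress sensor Sesn2 2.48 against 3.67 and 4.13. Ei24, Sesn1 and Phlda3 did not lie below both arrays, with gaps of 0.00, 0.00 and 0.08. Trp53 itself was level at 0.80 in atrium, 0.93 in ventricle and 0.91 in aorta.

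The KO and C2C12 samples were set beside these values. WT atrium was the lowest of all 8 samples for each of the 7 lower targets; the rule had already placed it below 2 of the 8, and it was the lowest for 167 of all 265 lower genes (63.0%). Over the 20 measured targets it was the lowest for 14 (70%), against 16.9% of all genes. For the median target WT atrium lay 1.07 below the middle KO and C2C12 sample, while the mean of WT ventricle and aorta lay 0.27 above it.

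**Figure D4:**
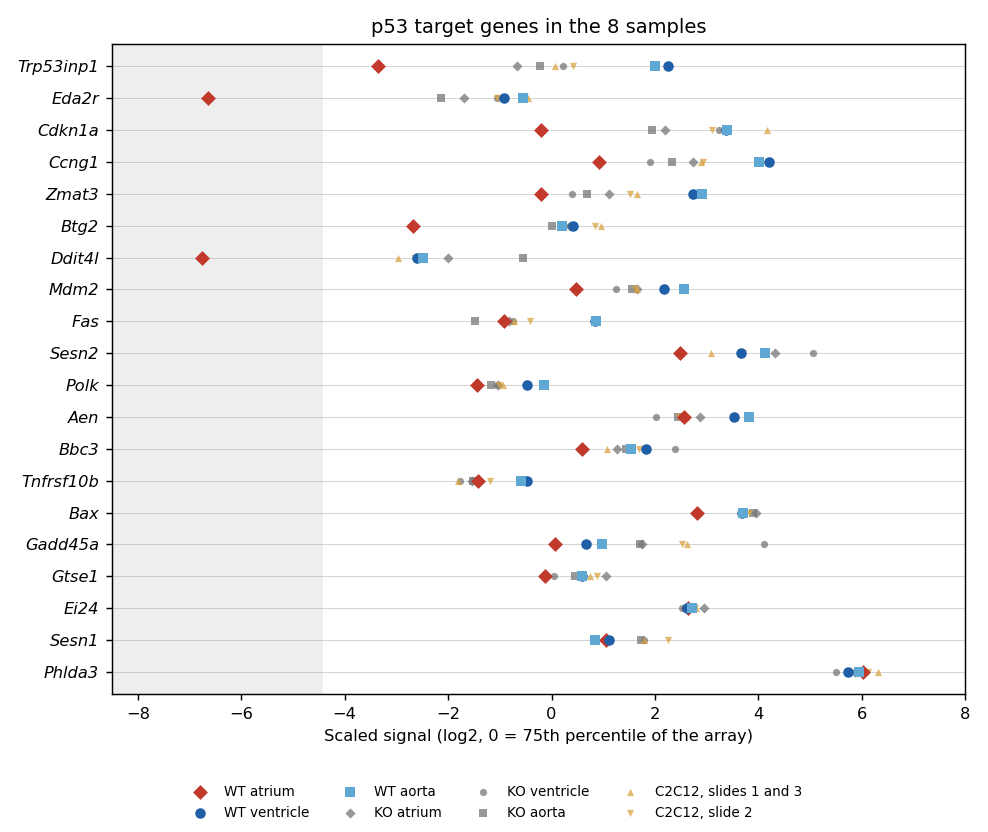
Scaled signal (log2, 0 = 75th percentile of the array) of the 20 measured p53 target genes in the 8 samples, 1 point per sample, ordered by WT atrium minus the mean of WT ventricle and aorta; grey shading marks levels below -4.45, where values have no order. WT atrium (red diamonds) is the lowest sample for 14 of the 20 genes.

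Genes of cell division were slightly more abundant in WT atrium and did not reach the rule. Of 44 measured cell cycle and replication genes 0 passed in either direction, near the 0.84% and 1.69% of all genes. Of the 44, 33 lay above both arrays, against 6601 of 15710 genes in all. The median difference was 0.35 (0.27 to 0.52 over the alternatives). The largest gaps were in Mybl2 (2.28 against 0.60 and 1.13) and Cdc6 (1.94 against 0.86 and 0.90). Of the other inhibitors of the cycle, Cdkn2a was near background and Cdkn2b was 2.52, 2.46 and 2.36. Ribosomal protein genes, a set of even high expression, had a median of -0.09 over 32 genes, which turned to 0.08 when arrays were scaled to their medians.

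A few extracellular matrix genes passed the rule, more of them lower than higher, as among all genes (265 against 132). Of 33 measured matrix glycoproteins and proteoglycans 5 were lower (15.2%) and 1 higher (3.03%) by the rule, against 1.69% and 0.84% of all genes. Of the 33, 21 lay below both arrays and 6 above, against 6092 and 6601 of 15710 genes in all. The median was -0.67 (-0.70 to -0.34 over the alternatives). Ogn (osteoglycin) was -2.25 in atrium against 3.22 and 2.14, 20.9-fold lower. Dcn (decorin), a proteoglycan that binds collagen, was 0.63 against 4.15 and 3.85, 9.35-fold lower, with a second probe not above background. Fn1 (fibronectin) was 1.92 against 4.90 and 5.25, 7.94-fold lower, and its 3 other probes had gaps of -2.70 to -3.14.

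Lox, which cross-links collagen, was 0.48 against 3.54 and 2.80, and Ltbp1, which holds latent TGF-beta in the matrix, was -0.89 against 1.52 and 1.25. Sparcl1, a matricellular protein, ran the other way at 1.06 against -1.70 and -2.43, 6.79-fold higher, with a second probe at 2.86. The collagens had a median of -0.34 over 19 genes, with 12 below both arrays. Col11a1, a minor fibrillar collagen of cartilage, was the collagen past the rule, higher at 2.01 against -0.64 and -1.28, but its other 2 probes were not above background.

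Of 23 measured matrix proteases and inhibitors 1 was higher (4.35%) and 2 lower (8.70%) by the rule, against 0.84% and 1.69% of all genes. Mmp9 (gelatinase B) was -1.70 in atrium against -4.50 and -4.51, at least 6.69-fold higher, and its second probe had a gap of 2.48. Mmp19 and Serpine2, an inhibitor of serine proteases, were not above background in atrium, at least 7.59-fold and 6.03-fold lower. Of 15 measured complement genes 0 were higher, and those lower included C1s1 (-2.72 against 1.03 and 1.05) and C3 (-0.72 against 2.04 and 3.85). The second probe of C1s1 had a gap of -3.72, and that of C3 was not above background on any WT array.

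Secreted signals differed in both directions. Wnt6 and Wnt10a, ligands encoded next to each other on chromosome 1, were both higher: Wnt6 was 0.57 in atrium against -3.46 and -3.53, 16.4-fold, with a second probe at 5.53, and Wnt10a was -2.14 against -4.60 and -6.75. Wnt10a was higher still in KO and C2C12 at 4.03 to 4.64. Wnt9a was lower at -3.70 against -0.07 and -0.75, with a second probe not above background on any WT array. Ccn5, a matricellular gene that Wnt signalling can induce, was -3.88 against 1.68 and 1.30, 36.1-fold lower.

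Among 37 measured growth factor genes, Igf2, Vegfc and Erbb3 were higher (8.11%) and Fgf7 and Areg lower (5.41%), against 0.84% and 1.69% of all genes. Vegfc, the lymphatic growth factor, was 3.12 against 0.29 and 1.03. Fgf7, which acts on epithelia, was 1.66 against 4.08 and 3.86. Areg, a ligand of the EGF receptor, was not above background in atrium and was -1.88 and -1.63 in the others. Erbb3 was -1.49 against -4.03 and -4.23, with 4 further probes not above background.

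Several transcription factors of the lists passed the rule, beside those described above. Hoxa10, a positional homeobox gene, was not above background in atrium (-6.54) against -1.93 and -2.13 and was 0.66 to 1.17 in KO and C2C12. Foxd1 was also not above background, against -1.93 and -2.38, and its second probe had a gap of -1.89. Cebpa, a factor of fat cell differentiation, was -4.93 against -1.32 and -1.57, at least 8.64-fold lower, with a second probe at a gap of -0.59. Hes6, of the Notch-related bHLH family, was -1.63 against 0.84 and 0.53. Lhx9, a LIM homeobox gene, was higher at -1.24 against -3.64 and -3.90. Another Lhx9 probe had a gap of 1.36, and a further one was not above background on any WT array. The neurofilament gene Nefl was not above background in atrium against -0.68 and -0.73, with a second probe at -3.45.

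The level of interferon-response genes depended on which array atrium was set against. Their median over 38 genes was 0.60, but it was -0.02 with ventricle left out and 1.18 with aorta left out. By the rule 2 were higher (5.26%) and 0 lower, against 0.84% and 1.69% of all genes. They were Tgtp1, an interferon-induced GTPase (0.81 against -2.03 and -1.75, second probe 0.16), and Ifih1, an RNA sensor (1.65 against -1.88 and -0.36, second probe not above background). Isg15 was 3.91 in atrium, 0.59 in ventricle and 2.13 in aorta. Genes of MHC class I presentation had a median of 0.52, and 0 passed. Of these, 16 of 18 lay above both arrays, against 6601 of 15710 genes in all. The H2 probes of this list share sequence and cannot be read as separate genes.

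Of 13 measured chemokine and chemokine receptor genes 1 was higher and 1 lower by the rule (7.69% each), against 0.84% and 1.69% of all genes. Of the 13, 9 lay above both arrays, against 6601 of 15710 genes in all. The median difference was 0.89 (0.74 to 1.26 over the alternatives). Cxcl12, which attracts progenitor cells, was 5.06 in atrium against 3.68 and 3.89. Cxcl11, which interferon induces, was -1.65 in atrium against -7.09 and -4.10, and its relative Cxcl10 was 4.19 against 1.44 and 2.65, a gap of 1.54. Ccl7, a monocyte attractant, was lower at -1.92 against 1.18 and 1.49, and a second probe had a gap of -3.04. Il1rl1, the receptor of interleukin 33, was 2.64 against 6.18 and 5.98, 10.1-fold lower, and its 2 other probes had gaps of -3.36 and -3.45. Tnfaip6, a hyaluronan-binding protein, was -3.29 against -0.04 and -0.58, 6.54-fold lower.

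Some genes past the rule lay next to each other. Those named here were chosen after their values were seen. On chromosome 13 the aldo-keto reductases Akr1c13, Akr1c19 and Akr1c12 were higher, with Akr1c13 at 2.06 in atrium against -1.84 and -2.76, while their neighbour Akr1c18 was not above background in atrium and -2.02 and -2.30 in the others. On chromosome 18 the protocadherins Pcdhb4, Pcdhb6, Pcdhb7, Pcdhb9 and Pcdhb14 were all lower, with Pcdhb9 at -3.38 against 0.05 and 0.02. The members of each family are similar in sequence, so a probe may read more than 1 of them.

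Over whole stretches of chromosomes WT atrium differed from the other WT arrays, judged by the mm8 positions of the probes. Which of them lay away from the KO and C2C12 samples differed by stretch and is given for each below. The stretches are runs of 2 or more 5 Mb windows whose median difference passed 0.8, a limit set after the windows were seen, and windows with under 10 genes were passed over. Single windows past the limit were found on chromosome 17 from 65 Mb (19 genes, 0.93), chromosome 9 from 5 Mb (15 genes, 0.80) and chromosome 18 from 80 Mb (17 genes, -1.10). The far end of chromosome X, from 135 to 165 Mb, held 119 measured genes with a median difference of 1.63, and 100 of them lay above both other arrays. All 25 genes of chromosome X that were higher by the rule lay there, 18.9% of the 132. The other 394 genes of the chromosome had a median of -0.02, with 0 higher and 10 lower by the rule.

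Genes of that end of X with unrelated roles had similar gaps; these were chosen after their values were seen. Sms (spermine synthase) was 5.40 in atrium against 3.38 and 3.14, and Sh3kbp1, an adaptor of receptor uptake, was 5.89 against 3.74 and 3.76. Apex2, a DNA repair nuclease, was 3.23 against 0.76 and 0.75, and Fancb, of the Fanconi anaemia pathway, was 2.96 against 0.56 and 0.57. Ventricle minus aorta had a median of 0.05 over the stretch. In KO the same genes had a median of 0.07 for atrium against the other regions.

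WT atrium was the highest of all 8 samples for 88 of the 119 genes (74.0%), against 26.9% of all genes and 82.6% of genes higher by the rule; the stretch was chosen for lying above 2 of the 8. Over it WT atrium lay 1.14 above the middle KO and C2C12 sample in the median, with WT ventricle and aorta at -0.23. On chromosome 3, from 115 to 125 Mb, 33 of 41 genes lay above both arrays with a median of 1.03, and atrium was again the sample away from KO and C2C12 (1.01, against 0.11 for ventricle and aorta). Bcar3, an adaptor of integrin signalling, was the gene past the rule there, at 3.75 against 1.55 and 1.64.

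On chromosomes 4 and 18 WT atrium lay below the other WT arrays, but near the KO and C2C12 samples. From 95 to 110 Mb of chromosome 4, 84 of 100 genes lay below both arrays with a median of -0.93, and 7 passed the rule, among them Nfia (-0.41 against 1.94 and 1.77) and Pde4b (-1.05 against 1.88 and 1.03). Chromosome 18 as a whole had a median of -0.61, with 301 of 396 genes below both arrays, 16 lower and 1 higher by the rule. Chromosome 18 was chosen for its median, the lowest of the 20 chromosomes examined; chromosomes 14 and 10 followed at -0.29 and -0.23. Here ventricle and aorta lay above the middle KO and C2C12 sample by 1.03 on the chromosome 4 stretch and by 0.44 on chromosome 18, where atrium lay at 0.00 and -0.05. WT atrium was the lowest of the 8 samples for 14.0% of the chromosome 4 genes and 35.6% of those on chromosome 18, against 16.9% of all genes. The medians stayed between 1.37 and 1.80 for distal X, -1.12 and -0.76 for chromosome 4, and -0.70 and -0.44 for chromosome 18 under the alternatives tried.

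**Figure D5:**
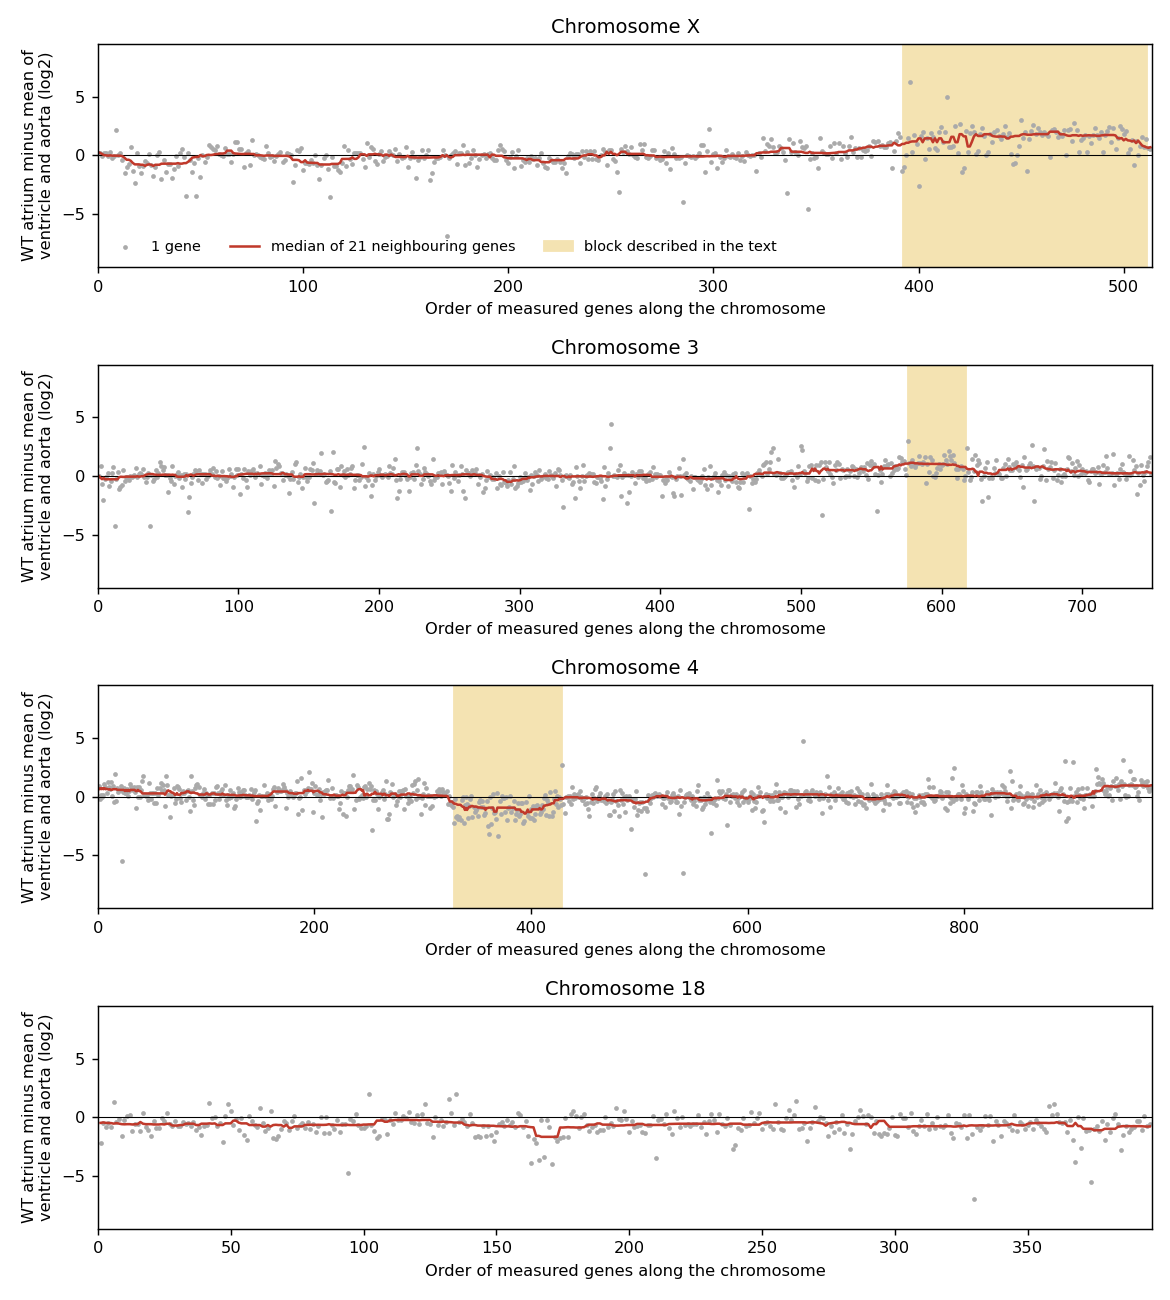
WT atrium minus the mean of WT ventricle and aorta (log2) for the measured genes of chromosomes X, 3, 4 and 18, in their order along the chromosome; points are genes, the red line is the median of 21 neighbouring genes and shading marks the stretches described. The line runs near 1.63 at the end of X, near -0.93 in the stretch of chromosome 4 and below 0 along chromosome 18.

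Xist and 4 Y-linked genes, which tell the sex of mouse cells, were not above background on any of the 3 WT arrays.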

How the data were processed

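Total RNA was labelled with Cy3 and hybridised to Agilent 1-colour arrays, per the labels' protocols. Each deposited scanner file gives a processed intensity per spot. The submitters' processing notes name Agilent Feature Extraction 9.5.3.1 as the software. It subtracted the background and did not scale arrays to each other, per the file headers. A deposited table of the whole series, with log2 of these signals, served as an alternative.

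Control spots and spots marked as outliers (56 to 87 on each WT array) were left out, no spot was saturated, and 49.5 to 57.1% of the WT arrays' probes passed the scanner's test of being well above background. Signals were divided by the 75th percentile of their array, floored at the lowest signal of a probe well above background on that array, and taken to log2. The number of arrays limits the precision. A gene was read at its probe of highest mean over the 3 WT arrays, and had to be above background in atrium to be higher, and in ventricle and aorta to be lower. The KO ventricle, KO aorta and C2C12 arrays of slides 1 and 3 differed by less than spot noise and were averaged, giving 8 samples. Probe names were updated through RefSeq tables of GRCm38.p6, and positions are those of the array design (mm8).

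Genes were named where they were among the 15 largest gaps with an approved symbol in each direction, list members past the rule, up to 4 list members with the largest gap, chamber or sex-linked genes, or Sgcb. Other genes, among them Mdm2, Fas, Trp53, H19, Cxcl12, Srebf2 and Bcar3, were picked outside this naming rule. The 43 gene lists and the genes compared were chosen with earlier results of these data known. For comparisons over all 8 samples, signals were floored at -4.45. Some genes that the rule would name are not reported here. No test was made. The gap rule was tested on simulated data, and 13 alternatives were tried. Python 3.11.15, numpy 2.4.6, pandas 2.3.3, matplotlib 3.10.9, R 4.3.3 and limma 3.58.1 (normexp with an offset of 50, and quantile normalization) were used.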

Additional observations from a re-analysis of the deposited data

How the results depend on the processing

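None of the 74 named genes past the rule changed direction under the alternatives run on them. These were scaling to the median, quantile normalization without and with normexp, no floor, the median of all probes, and leaving out ventricle or aorta. The ranges of list medians rest on the same alternatives. For no floor and for leaving out ventricle or aorta, the direction of a named gene was fixed in advance. A gene past the rule lies outside each of the other arrays alone, and removing the floor can only widen the gap of its probe. These settings are therefore no check on the named genes. The count of higher genes (132) and of lower genes (265) became 64 and 165 with normexp and quantile normalization, of which 64 and 164 were among those of the report. It became 199 and 403 with no floor, 84 and 149 with detection asked on all 3 arrays, 731 and 996 at a gap of 1 log2 unit, and 37 and 116 at a gap of 3. Left out in turn, ventricle and aorta gave 169 to 208 higher and 326 to 354 lower genes, with the larger counts without aorta. Scaling to the median gave 162 and 228 and moved the median of all genes from 0.04 to 0.21; the higher share of the calls went from 33.2% to 41.5%, and it was 42.3% at a gap of 1, 24.2% at a gap of 3 and 27.9% with normexp. The remaining alternatives gave 103 to 132 higher and 198 to 266 lower genes. Of the 74 named genes past the rule, 57 stayed past it with the median of all probes of a gene and 58 with normexp. Chrdl1, Erbb3 and Col11a1 had a gap of 0 with the median of probes, and Grb10 one of -1.58. Among p53 targets, Ddit4l missed the rule with median scaling, quantile normalization, normexp and the median of probes, and Btg2 and Zmat3 missed it with the median of probes. The causes were not tested. With 1 array per region, the spread between cultures of a region is unknown.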

Other observations

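Sterol and lipid synthesis genes gave no gene past the rule in either direction (0 of 24 measured), near the 0.84% and 1.69% of all genes. Of the 24, 14 lay below both other WT arrays and 6 above, against 6092 and 6601 of 15710 genes in all. The median difference was -0.37 (-0.44 to -0.19 over the alternatives). Hmgcs1, an early enzyme of cholesterol synthesis, was 1.11 in atrium against 3.33 and 2.84, and was 2.70 to 4.79 in the KO and C2C12 samples, so WT atrium was the lowest of the 8. Srebf2, a transcription factor of sterol synthesis, was 3.14 against 4.42 and 4.04. Hypoxia and glycolysis genes had 0 of 24 past the rule, also near the shares of all genes. Their median was -0.21, with 12 below both arrays and 5 above. It was -0.06 with ventricle left out, -0.51 with aorta left out and -0.04 with arrays scaled to their medians. Vegfa, the angiogenic growth factor, was 1.07 against 2.26 and 2.17.

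Of 18 measured integrins and cadherins, 1 was higher by the rule (5.56%) and 0 lower, against 0.84% and 1.69% of all genes. Of the 18, 12 lay below both arrays and 5 above. The median difference was -0.63, or -0.16 with the median of all probes of a gene. The gene past the rule was Itga3, a laminin receptor subunit, at 1.16 in atrium against -0.87 and -0.88. Other Itga3 probes had gaps of 2.05 and 0.16. Itgb5, a subunit of a vitronectin receptor, was 2.03 against 3.85 and 3.71, and 4.41 to 5.51 in KO and C2C12. Cdh2 (N-cadherin) was 0.05 against 1.55 and 1.48, a level near that of KO and C2C12, which held it between -0.76 and 0.17. Inhba, the activin A subunit, was 1.88 against 3.64 and 3.62. These lists were not tested.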
